A study of Bos taurus with 15 samples.

Results

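SEPT10, now called SEPTIN10, is a member of the septin family. It was followed here with the other septins through bovine morulae whose genome came from the sperm alone, from the oocyte alone, or from both parents. The family was taken as every row of the count table named SEPT and digits that reached 10 counts in at least 5 of the 15 libraries. The rule kept 9 of 11 septin rows, out of 31999 rows in all. SEPT10 was picked because its counts were known to differ between these groups, so its levels are given as a description with no test. The 8 other septins, SEPT1, SEPT2, SEPT4, SEPT7, SEPT8, SEPT9, SEPT11 and SEPT12, were picked by name and count, and their differences were tested.

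RNA was sequenced from morulae, the stage at which the cleaving blastomeres form a compact ball. There were 5 libraries of haploid androgenetic embryos (titles beginning TII), 5 of haploid parthenogenetic embryos (titles beginning CHX) and 5 of diploid embryos from ICSI, the injection of a sperm into the oocyte. Both uniparental groups were haploid, so against ICSI morulae ploidy, parental genome and procedure cannot be told apart. Between the haploid groups ploidy was the same, and parental genome and procedure cannot be told apart. The labels give no breed, bull, donor, day or number of embryos per library, and nothing in them says that replicates came from separate animals or batches, so every p-value measures the spread between these libraries only. Libraries held 19968077 to 28981601 counts and 13564 to 19950 detected genes, here rows with a count above 0. Some rows hold the same counts under different names, as described below for the septins. These numbers, and the shares of all rows given below, may therefore include some genes repeatedly. The library with fewest genes was replicate 6 of the androgenetic group (13564), replicate 5 of the ICSI group (15286) and replicate 6 of the parthenogenetic group (16154). Of 19 early embryo markers, 4 had a row under a symbol: ARGFX, DUXA and SOX2 had counts in all 15 libraries, while DPRX was at 0 in 7. Most rows carry Ensembl or LOC identifiers, and only 777 carry a gene symbol. Listed markers of trophectoderm, hypoblast, oocyte, cumulus cells and sperm had 0 rows under a symbol and were not analysed here.

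Septins are GTP-binding proteins that join end to end into rods and then into filaments and rings under the plasma membrane. They are best known for marking the cleavage furrow, where they scaffold the contractile machinery of cytokinesis, and for acting as diffusion barriers. A filament draws on 4 subgroups. SEPT7 forms a subgroup of its own and sits in most known complexes. SEPT1, SEPT2, SEPT4 and SEPT5 make up the SEPT2 subgroup. SEPT6, SEPT8, SEPT10, SEPT11 and SEPT14 make up the SEPT6 subgroup, whose members can take each other's place in a filament. SEPT3, SEPT9 and SEPT12 make up the SEPT3 subgroup, which is found only in the longer rods.

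The levels of SEPT10 spread over more than 3 orders of magnitude across the 15 libraries. In counts-per-million scaled by TMM factors (CPM), androgenetic replicates 1, 2, 4, 5 and 6 stood at 86.5, 42.7, 4.14, 70.0 and 291. ICSI replicates 1 to 5 stood at 1.63, 12.3, 16.8, 25.6 and 103 CPM. Parthenogenetic replicates 1, 2, 3, 5 and 6 stood at 1.17, 0.386, 0.487, 3.50 and 0.133 CPM, from 33, 10, 15, 112 and 3 raw counts. All 5 androgenetic libraries were above all 5 parthenogenetic ones, by a narrow margin between 4.14 and 3.50 CPM. The ICSI libraries overlapped both haploid groups: 4 of the 5 androgenetic libraries lay within the ICSI range, and 4 of the 5 parthenogenetic libraries lay below it. The order of the group medians was androgenetic (70.0), ICSI (16.8) and parthenogenetic (0.487), and neither neighbouring pair in that order was free of overlap.

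**Figure D1:**
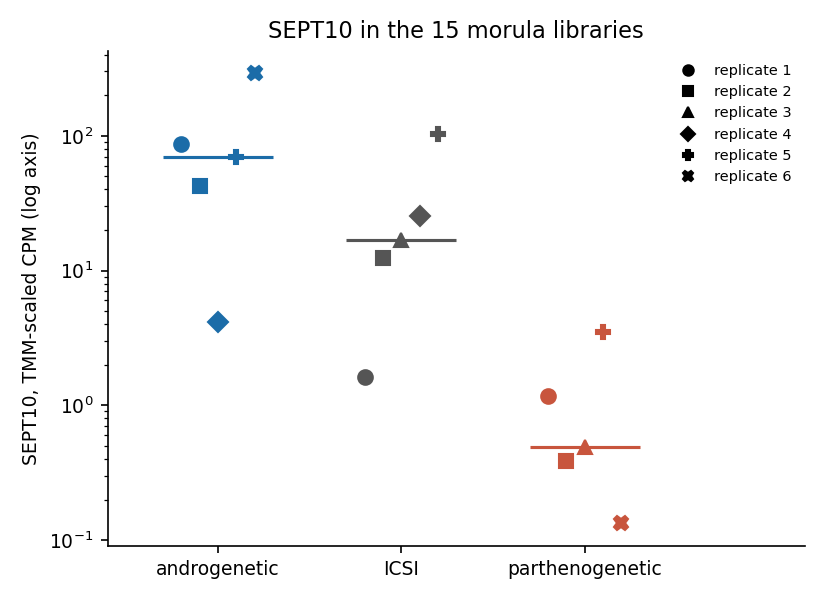
SEPT10 in TMM-scaled CPM (log axis) in each library of the androgenetic, ICSI and parthenogenetic groups. Each symbol is a library, its shape gives the replicate number, and the line is the group median (70.0, 16.8 and 0.487 CPM). All androgenetic libraries lie above all parthenogenetic libraries, and the ICSI libraries reach from 1.63 to 103.

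Group means of SEPT10 were 98.9 ± 112 CPM (SD, n = 5) in androgenetic, 31.9 ± 40.7 in ICSI and 1.14 ± 1.38 in parthenogenetic morulae. The SD was larger than the mean in each group. Without the highest library of each group the means were 50.8 ± 36.0, 14.1 ± 9.97 and 0.545 ± 0.445 CPM (n = 4). In the edgeR fit of all 15 libraries SEPT10 was 3.10-fold higher in androgenetic than in ICSI morulae, a value that was 1.72-fold when androgenetic replicate 6 was left out and 7.15-fold when ICSI replicate 5 was. It was 27.7-fold lower in parthenogenetic than in ICSI morulae, a value that was 12.4-fold with ICSI replicate 5 left out and 57.6-fold with parthenogenetic replicate 5 left out. Between the haploid groups it was 86.1-fold higher in androgenetic morulae, with a range of 48.6-fold (without androgenetic replicate 6) to 178-fold (without parthenogenetic replicate 5). These 3 comparisons share libraries pairwise, so their sizes are not independent of each other. In such bulk libraries, fewer cells with a transcript and less RNA per cell cannot be told apart.

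The libraries with the most SEPT10 were also those that stood apart in other measures. Androgenetic replicate 6 and ICSI replicate 5, first and second of all 15 for SEPT10, had the fewest detected genes of all libraries. They also had the most DUXA, a PRD-like homeobox gene of the early embryo, at 6423 and 634 CPM. Each led its group in ARGFX, another PRD-like homeobox gene, at 3923 and 999.6 CPM. The pattern did not extend to every library. Parthenogenetic replicate 6, with the fewest genes in its group, had the least SEPT10, and androgenetic replicate 4, with the second highest DUXA of its group (472 CPM), had the least SEPT10 of its group. With the number of detected genes as a covariate, SEPT10 was 1.30-fold higher in androgenetic than in ICSI morulae and 28.6-fold higher in androgenetic than in parthenogenetic morulae. In that fit its log2 fold change for parthenogenetic minus ICSI morulae was -4.46. The covariate itself differed by group, with medians of 16839 (androgenetic), 19755 (ICSI) and 18478 (parthenogenetic) detected genes. Its effect is therefore not fully separable from group. With androgenetic replicate 6, ICSI replicate 5 and parthenogenetic replicate 6 left out, SEPT10 was 3.94-fold higher in androgenetic and 10.2-fold lower in parthenogenetic than in ICSI morulae. The log2 fold change between the haploid groups was then 5.33. In both fits SEPT10 kept its direction. The size of its difference from ICSI in androgenetic morulae shrank with the covariate and grew without these libraries. SEPT10 was picked for its differences in these same counts, so the kept direction is no independent support.

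In most libraries the row SEPT10 held nearly the same counts as the row of a second annotated gene. Whether the same reads were counted on both rows was not tested. RefSeq's table for the assembly ARS-UCD2.0 lists a long non-coding RNA, LOC101904087, that overlaps SEPTIN10 and extends past its end on the side of the gene SH3RF3. In the 5 ICSI libraries the rows SEPT10 and LOC101904087 held identical counts, at 44, 326, 562, 820 and 2201. In androgenetic replicates 1, 2, 4, 5 and 6 SEPT10 had 1971, 693, 110, 1179 and 5372 counts, and LOC101904087 had 2000, 693, 109, 1177 and 5361. In parthenogenetic replicates 1, 2, 3, 5 and 6 SEPT10 had 33, 10, 15, 112 and 3 counts, and LOC101904087 had 31, 4, 6, 110 and 1.

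Over a group, LOC101904087 held 100% of the SEPT10 count in ICSI, 100.2% in androgenetic and 87.9% in parthenogenetic libraries (152 against 173 counts). The rows matched within 2% or 3 counts in 13 of 15 libraries. The exceptions were parthenogenetic replicates 2 and 3, where SEPT10 had 6 and 9 counts more. In androgenetic replicate 1, by contrast, LOC101904087 held 29 counts more than SEPT10. The strand setting of the counting was not given in the sources used here, and the RefSeq table used carries no strand. The counts therefore cannot be assigned to the septin transcript or to the non-coding RNA. Another long non-coding RNA that overlaps SEPTIN10, LOC112448778, had no row and was not analysed here. Whether its reads are among these counts was not tested. The values of the rows differ most where counts are low: the parthenogenetic median was 0.487 CPM for SEPT10 and 0.195 CPM for LOC101904087.

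**Figure D2:**
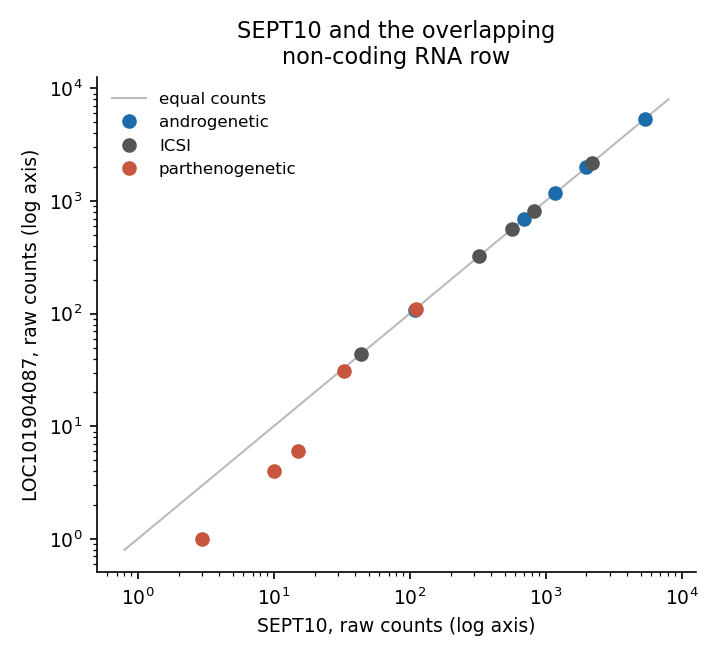
Raw counts on LOC101904087 (log axis) against raw counts on SEPT10 (log axis), 1 point per library, with the line of equal counts. The points of all ICSI libraries lie on the line, all parthenogenetic libraries lie below it, farthest at 3, 10 and 15 SEPT10 counts, and androgenetic replicate 1 lies slightly above it.

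An Ensembl row, ENSBTAG00000022461, also followed SEPT10. It held 13124 counts over all libraries against 13451 on SEPT10 and matched within 2% or 3 counts in 9 of 15 libraries. For androgenetic minus parthenogenetic morulae this row had a log2 fold change of 6.45 and LOC101904087 of 6.63, beside 6.43 for SEPT10 itself. Set against ICSI, the androgenetic values were 1.64, 1.64 and 1.63 in the same order of rows, and the parthenogenetic values were -4.81, -4.99 and -4.79. Such double entries were common in the family: 6 of the 8 other septins had an Ensembl row with the same counts within 2% or 3 counts in every library. For SEPT8 and SEPT11 the nearest Ensembl row matched in 14 and 13 libraries. Whether each pair is the same gene under different names was not checked.

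The genes beside SEPTIN10 that had a row were low and showed no difference of comparable size. The RefSeq table places SOWAHC, an ankyrin repeat gene, next to SEPTIN10 on the side away from LOC101904087, and EVA1A, a regulator of autophagy, beyond it. The other 8 of the 10 nearest protein-coding genes, 5 on each side, had 0 rows under their symbols and were not analysed here. SOWAHC averaged 1.38 ± 1.90 CPM (SD, n = 5) in androgenetic, 0.621 ± 0.530 in ICSI and 0.660 ± 0.897 in parthenogenetic libraries. EVA1A averaged 1.94 ± 1.998, 5.16 ± 5.13 and 3.54 ± 3.76 CPM. For androgenetic minus parthenogenetic morulae the log2 fold change was 1.06 ± 1.41 (SE) for SOWAHC and -0.87 ± 0.97 for EVA1A, and neither passed edgeR's quasi-likelihood test (adjusted p = 0.741 and 0.687). Libraries of the groups overlapped for both genes. Like SEPT10, SOWAHC was highest of its group in androgenetic replicate 6 (4.71 CPM) and parthenogenetic replicate 5 (2.13 CPM). It was also lowest in parthenogenetic replicate 6 (0 CPM) and ICSI replicate 1 (0.111 CPM). Its lowest androgenetic and highest ICSI libraries were not those of SEPT10. SOWAHC medians (0.571 in androgenetic, 0.515 in ICSI, 0.232 CPM in parthenogenetic libraries) lay in the order of SEPT10, its means did not. With 0 to 87 counts per library these values are near the floor.

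SEPT10 belongs to the SEPT6 subgroup, and its share of the subgroup's counts was widely spread. It was the largest part in androgenetic replicate 6 only, where SEPT11 had its lowest count (683). In every other library SEPT11 had more counts. As above, counts on the row SEPT10 cannot be assigned to the septin transcript. The share was taken over the counts of SEPT6, SEPT8, SEPT10 and SEPT11, which are not divided by transcript length and so do not give a ratio of molecules. SEPT10 took 6.23% to 88.7% of these counts in androgenetic libraries (median 31.1%), 1.15% to 40.8% in ICSI libraries (median 9.93%) and 0.0755% to 2.70% in parthenogenetic libraries (median 0.367%). The highest share, in androgenetic replicate 6, had a 95% Wilson interval of 87.8% to 89.4%. The lowest, in parthenogenetic replicate 6, had an interval of 0.0257% to 0.222%. These intervals cover counting error only, since amplified reads are not independent molecules.

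**Figure D3:**
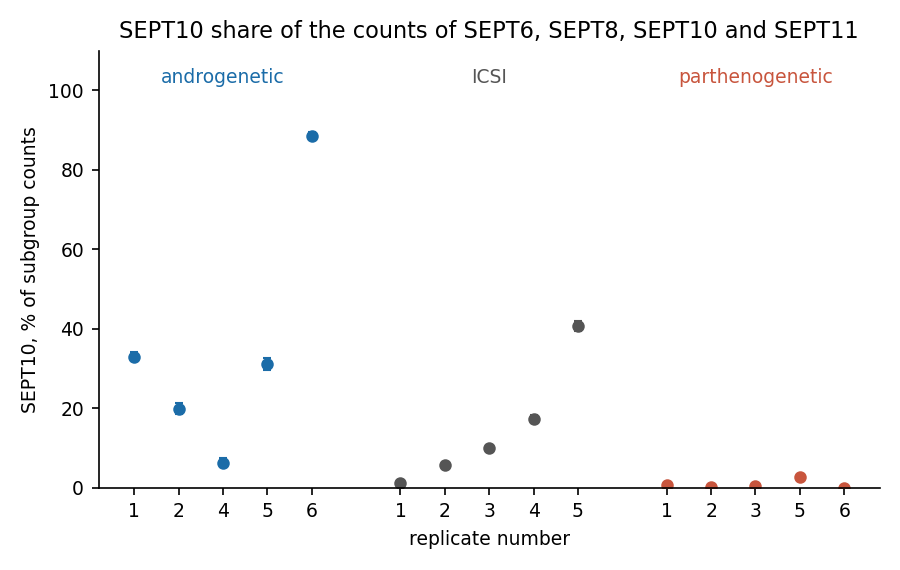
SEPT10 as a percentage of the counts on SEPT6, SEPT8, SEPT10 and SEPT11, by library and replicate number, with 95% Wilson intervals that are mostly smaller than the points. Parthenogenetic libraries stay at or below 2.70%, and androgenetic replicate 6 stands alone at 88.7%.

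SEPT11, which had 683 to 5230 counts per library, differed between group means by less than the SD within the androgenetic group. It averaged 119.9 ± 65.3 CPM (SD, n = 5) in androgenetic, 149 ± 29.3 in ICSI and 149 ± 24.4 in parthenogenetic libraries. Parthenogenetic libraries lay between 125 and 176 CPM and ICSI libraries between 118 and 197. Androgenetic replicates 1, 2, 4, 5 and 6 stood at 175, 171, 62.0, 155 and 37.0 CPM, so replicates 4 and 6 were below every other library. The log2 fold changes were -0.31 ± 0.39 (SE) for androgenetic minus ICSI and 0.00 ± 0.39 for parthenogenetic minus ICSI, and neither passed edgeR's quasi-likelihood test (adjusted p = 0.711 and 0.99997). In androgenetic replicate 6 SEPT11 was thus lowest where SEPT10 was highest, while in ICSI replicate 5 SEPT11 was at 141 CPM, its group median.

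SEPT8, the other measured member of the subgroup, was at 0 or 1 count in 3 of the 5 androgenetic libraries. Androgenetic replicates 1, 2, 4, 5 and 6 had 29, 16, 1, 1 and 0 counts, or 1.27, 0.985, 0.0376, 0.0594 and 0 CPM, and the 0 allows up to 0.163 CPM at a floor of 3 counts. ICSI libraries lay between 2.26 and 8.23 CPM, with no overlap. Parthenogenetic libraries lay between 0.502 and 4.34 CPM and overlapped both. SEPT8 was the only 1 of the 8 septins whose androgenetic and ICSI libraries did not overlap, where 7.21% of all tested rows had no overlap. For the other comparisons the count was 0 of 8, where 0.879% (parthenogenetic minus ICSI) and 4.55% (androgenetic minus parthenogenetic) of rows had none. Its log2 fold change of -3.18 ± 1.21 (SE) did not pass edgeR's quasi-likelihood test (adjusted p = 0.145). It passed in DESeq2 (adjusted p = 0.0161) and limma voom (0.0257), and over the 25 alternatives the adjusted p lay between 0.0161 and 0.229. Against parthenogenetic morulae the log2 fold change was -2.05 ± 1.16 (edgeR adjusted p = 0.359). SEPT6 itself was below the count rule, with at most 50 counts and 10 or more in 4 libraries.

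SEPT7, the septin with the most counts, was at lower levels in androgenetic morulae apart from replicate 6. Androgenetic replicates 1, 2, 4, 5 and 6 stood at 132, 156, 191, 189 and 558 CPM. ICSI libraries lay between 396 and 984 CPM and parthenogenetic libraries between 297 and 1029. The first 4 androgenetic libraries were thus below all 10 others, and replicate 6 lay within both ranges. Means were 245 ± 176 (SD, n = 5), 624 ± 244 and 689 ± 312 CPM in androgenetic, ICSI and parthenogenetic libraries. The log2 fold changes of -1.35 ± 0.46 (SE) against ICSI and -1.49 ± 0.46 against parthenogenetic morulae did not pass edgeR's quasi-likelihood test (adjusted p = 0.105 and 0.0905). Without androgenetic replicate 6 they were -1.81 and -1.94 and passed (edgeR adjusted p = 0.0322 and 0.0290). Over all 25 alternatives the adjusted p lay between 0.0170 and 0.206 against ICSI and between 0.00645 and 0.250 against parthenogenetic morulae. In androgenetic replicate 6 both SEPT7 and SEPT10 were the highest of their group.

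In the SEPT2 subgroup, androgenetic means lay below the others for SEPT2 and SEPT4 and above them for SEPT1. SEPT2, a core septin of the cleavage furrow and of the primary cilium base, stood at 24.6, 8.99, 16.9, 3.09 and 5.58 CPM in androgenetic replicates 1, 2, 4, 5 and 6. It lay between 20.8 and 57.4 CPM in ICSI and between 13.4 and 72.7 in parthenogenetic libraries, and androgenetic replicate 1 lay within both ranges and replicate 4 within the parthenogenetic range. The log2 fold change was -1.77 ± 0.56 (SE) against ICSI and -1.71 ± 0.56 against parthenogenetic morulae, and neither passed edgeR's quasi-likelihood test (adjusted p = 0.0845 and 0.109). DESeq2 called both (adjusted p = 0.0278 and 0.0376), and over the 25 alternatives the adjusted p lay between 0.0278 and 0.266 and between 0.0376 and 0.280.

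SEPT1, which in adult tissues is mostly a septin of blood cells, stood at 10.2, 35.0, 21.1, 30.5 and 7.26 CPM in androgenetic replicates 1, 2, 4, 5 and 6. ICSI libraries lay between 4.79 and 10.6 CPM and parthenogenetic libraries between 3.84 and 7.47. Replicates 2, 4 and 5 of the androgenetic group were thus above all 10 others, and replicates 1 and 6 were within the ICSI range. The log2 fold change was 1.48 ± 0.53 (SE) against ICSI and 1.92 ± 0.54 against parthenogenetic morulae, and neither passed edgeR's quasi-likelihood test (adjusted p = 0.126 and 0.0694). Without androgenetic replicate 6 the values were 1.80 and 2.24 and passed (edgeR adjusted p = 0.0453 and 0.0335). Over the 25 alternatives the adjusted p lay between 0.00774 and 0.305 against ICSI and between 4.35e-04 and 0.173 against parthenogenetic morulae.

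SEPT4, known from the annulus of the sperm tail and from a pro-apoptotic isoform, was sparse and uneven. It had 0, 2, 4, 68 and 0 counts in androgenetic replicates 1, 2, 4, 5 and 6, between 7 and 161 in ICSI and between 10 and 202 in parthenogenetic libraries. In CPM, androgenetic replicate 5 stood at 4.04 and ICSI replicate 5 at 7.53, far from the rest of their groups. The log2 fold change against ICSI was -1.33 ± 1.47 (SE; edgeR adjusted p = 0.670), and it was 0.12 without ICSI replicate 5 and -4.89 without androgenetic replicate 5. SEPT4 came closest to the count rule among the septins kept, with 10 or more counts in 10 libraries, of which 1 was androgenetic, 5 were parthenogenetic and 4 were ICSI. SEPT6, with 4 libraries, came closest among those left out, and SEPT3 had at most 7 counts.

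In the SEPT3 subgroup no difference passed. SEPT9, which acts in the last step of cytokinesis, averaged 16.7 ± 9.96 CPM (SD, n = 5) in androgenetic, 25.4 ± 2.45 in ICSI and 28.2 ± 12.1 in parthenogenetic libraries. ICSI libraries were close together, between 22.9 and 28.9 CPM, and 4 of 5 androgenetic libraries were below them, between 7.15 and 16.5 CPM. Its log2 fold change against ICSI was -0.61 ± 0.44 (SE; edgeR adjusted p = 0.485). SEPT12, a septin of the sperm annulus, was low in every library, at group means of 2.35 ± 0.803, 3.19 ± 1.13 and 3.07 ± 1.07 CPM. Its log2 fold changes were -0.44 ± 0.69 for androgenetic minus ICSI and -0.06 ± 0.69 for parthenogenetic minus ICSI (edgeR adjusted p = 0.778 and 0.99997).

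**Figure D4:**
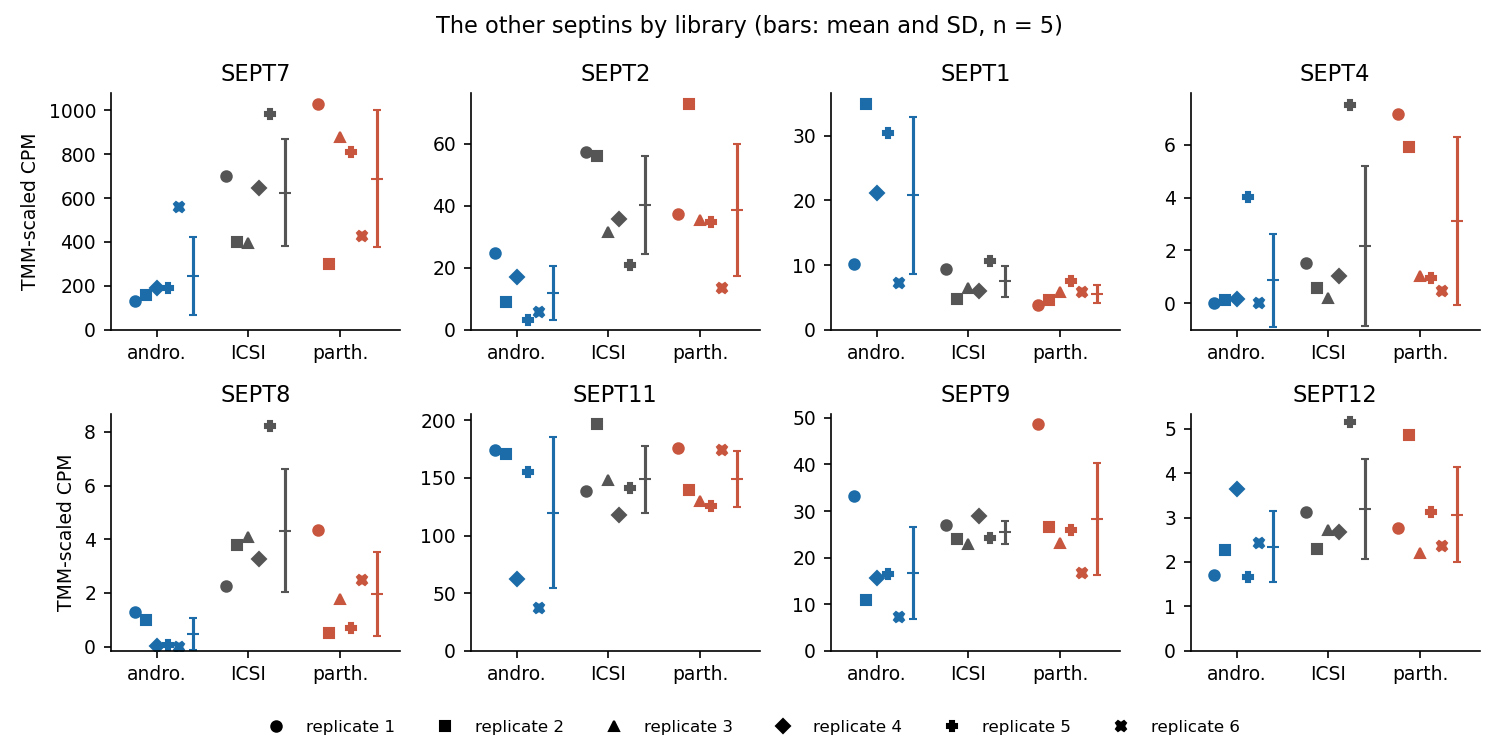
TMM-scaled CPM of the 8 other septins in each library, 1 panel per gene, with symbols by replicate number and bars for the group mean and SD (n = 5). SEPT7, SEPT2 and SEPT8 lie lower and SEPT1 higher in most androgenetic libraries, SEPT8 alone without overlap with ICSI, and SEPT11, SEPT9 and SEPT12 overlap between all groups.

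Across the 8 septins other than SEPT10, edgeR's quasi-likelihood test called 0 in any of the 3 comparisons. For androgenetic minus ICSI morulae 2.82% of all 16375 tested rows were called, for parthenogenetic minus ICSI 0.0733%, and for androgenetic minus parthenogenetic 1.75%. At an unadjusted p under 0.05, androgenetic minus ICSI morulae had 4 of 8 septins (SEPT2, SEPT7 and SEPT8 lower, SEPT1 higher), where 19.7% of all rows were at that level. Androgenetic minus parthenogenetic morulae had 3 of 8 (SEPT2 and SEPT7 lower, SEPT1 higher), where the share of all rows was 18.7%, and parthenogenetic minus ICSI morulae had 0 of 8, where it was 1.86%. DESeq2 called SEPT1, SEPT2 and SEPT8 in the first of these comparisons and SEPT1 and SEPT2 in the second, among 12.9% and 11.4% of all rows. limma voom called SEPT8 in the first and SEPT7 in the second, among 5.35% and 4.29%. Both called 0 septins for parthenogenetic minus ICSI morulae, where they called 0.372% and 0.0672% of rows and 0 septins had an unadjusted p under 0.05.

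The 8 septins had a median log2 fold change of -0.97 for androgenetic minus ICSI and -1.12 for androgenetic minus parthenogenetic morulae, with 7 of 8 negative in each. Over all tested rows the medians were -0.01 and 0.00, and 50.2% and 50.1% of values were negative. For parthenogenetic minus ICSI morulae the median was -0.03 with 4 of 8 negative, beside 0.02 and 48.8% over all rows. The first 2 comparisons share the androgenetic libraries, so their agreement in sign is not a second observation.

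**Figure D5:**
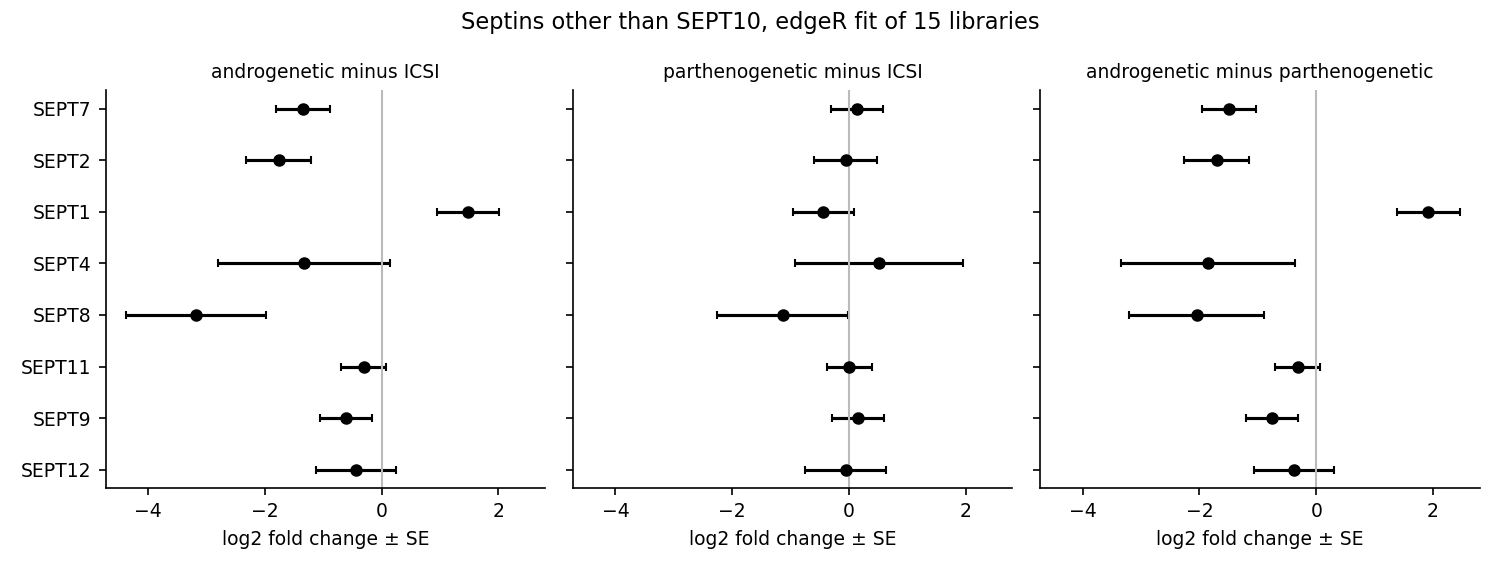
Log2 fold changes of the 8 other septins with their SE in the edgeR fit of 15 libraries, 1 panel per comparison (axis: log2 fold change, first group minus second). Against both other groups the androgenetic values of SEPT7, SEPT2 and SEPT8 lie below 0 and that of SEPT1 above, and the parthenogenetic minus ICSI values lie between -1.14 and 0.52.

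SEPT10 and the sparse septins SEPT4 and SEPT8 had the widest spread within groups. In ICSI libraries the highest SEPT10 level was 63.0 times the lowest, against 36.0 for SEPT4, 3.64 for SEPT8 and 1.26 for SEPT9. In parthenogenetic libraries the factor was 26.2 for SEPT10, 16.1 for SEPT4, 8.64 for SEPT8 and 1.40 for SEPT11. In androgenetic libraries it was 70.3 for SEPT10 and 4.23 for SEPT7, while SEPT4 and SEPT8 had libraries at 0 and no such factor. The coefficient of variation was larger for SEPT4 (2.06) and SEPT8 (1.29) than for SEPT10 (1.13) in androgenetic libraries, and for SEPT4 (1.40) than for SEPT10 (1.28) in ICSI libraries. ICSI replicate 5 was the highest ICSI library for 6 of the 9 septins (SEPT1, SEPT4, SEPT7, SEPT8, SEPT10 and SEPT12). Androgenetic replicate 6 was the lowest of its group for SEPT1, SEPT8, SEPT9 and SEPT11 and the highest for SEPT7 and SEPT10. No other septin followed SEPT10 closely: Pearson correlations of log2 CPM over the 15 libraries, which share their library and depth with SEPT10, lay between -0.53 (SEPT2) and 0.46 (SEPT1), and after subtracting group means between -0.33 (SEPT2) and 0.46 (SEPT7).

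Among 609 rows with a symbol, SNURF had the pattern most like that of SEPT10, with a Pearson correlation of log2 CPM of 0.81 over the 15 libraries, as a description without a test. It was followed by the zinc finger gene ZNF804A (0.79), the neuropeptide gene NMB (0.76), the phosphatase gene PTPN20 (0.75), the uridylyltransferase gene ZCCHC6, now TUT7 (0.70), and the zinc finger gene ZIM3 (0.69). Of all 16374 rows compared, 19 had a higher correlation than SNURF, LOC101904087 and ENSBTAG00000022461 among them. SEPT10 was picked for its difference between groups, so a correlation over all libraries favours rows that differ between the same groups. SNURF, an imprinted gene expressed from the paternal allele, averaged 213 ± 62.3 CPM (SD, n = 5) in androgenetic, 120.3 ± 48.1 in ICSI and 0.701 ± 0.653 in parthenogenetic libraries. SNURF was less spread than SEPT10 in ICSI libraries, between 79.1 and 201 CPM, and in androgenetic libraries, between 161 and 316 CPM. In parthenogenetic libraries, from 1 to 40 counts, its highest level was 34.7 times the lowest, against 26.2 for SEPT10. ICSI replicate 1, at 1.63 CPM of SEPT10, had 104 CPM of SNURF. After subtracting group means the symbol rows most like SEPT10 were MARCH7, now MARCHF7, a ubiquitin ligase gene (0.77), the tRNA row TRNAN-GUU (0.67) and NXPE2 (0.65). Of all 16374 rows compared, 15, 82 and 109 had a higher correlation than these, in the same order. TRNAN-GUU had 0 to 30 counts per library, so its correlation rests on values near the floor. SNURF was not among these 3 rows. Between groups MARCH7 did not follow SEPT10, with means of 17.2 CPM in androgenetic, 38.3 in ICSI and 34.6 in parthenogenetic libraries.

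Of 63 listed genes for cytokinesis and septin partners, 3 had a row under a symbol, and 0 of 3 passed edgeR's quasi-likelihood test in any comparison. DESeq2 and limma voom also called 0. Between androgenetic and ICSI morulae the shares of all rows called were 2.82% (edgeR), 12.9% (DESeq2) and 5.35% (limma voom). Between parthenogenetic and ICSI morulae they were 0.0733%, 0.372% and 0.0672% in the same order of tools. Between the haploid groups they were 1.75%, 11.4% and 4.29%. With only 3 rows and such shares, the 0 says nothing about these genes in particular. For androgenetic minus ICSI morulae 0 of 3 had an unadjusted p under 0.05 in edgeR (19.7% of all rows) and DESeq2 (25.9%), and 1 of 3, RHOB, in limma voom (24.6%). RHOB was also at that level in edgeR without androgenetic replicate 5, and CNTRL without the 3 libraries with fewest genes, where 18.4% and 26.1% of rows were. RHOB, a small GTPase that acts on actin, averaged 6.36 ± 11.5 CPM (SD, n = 5) in androgenetic, 8.03 ± 3.08 in ICSI and 8.004 ± 4.66 in parthenogenetic libraries. Its androgenetic mean rests on replicate 5, at 27.0 CPM. Androgenetic replicates 1, 2, 4 and 6 stood at 0.263, 0.800, 2.22 and 1.57 CPM, below all ICSI libraries (4.16 to 11.3 CPM). Parthenogenetic libraries lay between 1.89 and 12.7 CPM. CNTRL, a centriole protein needed for abscission, averaged 13.6 ± 10.8, 11.5 ± 6.98 and 9.55 ± 1.71 CPM. MAD2L1, of the spindle checkpoint, averaged 2334 ± 2770, 2069 ± 894 and 1885 ± 189 CPM. These means hide a split, since MAD2L1 stood at 491, 380 and 504 CPM in androgenetic replicates 1, 2 and 5. Those libraries lay below all ICSI (1499 to 3619 CPM) and all parthenogenetic libraries (1719 to 2185 CPM). CNTRL was at 0.163 CPM in androgenetic replicate 6, the library with the most SEPT10, where MAD2L1 was at 6615 CPM. In androgenetic replicate 4, with the least SEPT10 of its group, MAD2L1 was also high at 3678 CPM and CNTRL was at 13.8 CPM. A link of either gene to SEPT10 was not tested.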

How the data were processed

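PolyA RNA of bovine morulae was made into libraries with SMART-Seq HT and Nextera XT kits, per the labels' protocols. The values are raw read counts per row, as the authors deposited them in a single table of 31999 rows and 15 columns. The submitters' processing notes name Trim Galore, cutadapt, STAR and featureCounts; genome build, annotation and strand setting are not given in the sources used here. Columns were matched to samples by title. The 16375 rows that passed edgeR's filterByExpr held 99.9% of counts. edgeR 4.0.16 (R 4.3.3) fitted all 15 libraries with TMM scaling and the quasi-likelihood test, and p-values were Benjamini-Hochberg adjusted over all rows tested, with calls at 0.05. CPM are counts-per-million scaled by TMM factors. DESeq2 1.42.0, voom of limma 3.58.1 and other settings were alternatives, and the code was tested on simulated data.

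The members, gene lists and tests were chosen with earlier results of these data known. Genes were named by rule: every septin row, the listed partner genes and the 5 protein-coding genes on each side of SEPTIN10 that had a row, rows with matching counts, and the 6 symbol rows most correlated with SEPT10 in log2 CPM (prior count 2), with 3 more after subtracting group means. Replicates were taken as separate libraries. Gene names and neighbours came from RefSeq's table for ARS-UCD2.0. Of its 13 septin genes, SEPTIN5 and SEPTIN14 were not analysed here. No sequence is printed, since no sequence table was used here. Counting intervals and floors of 3 counts cover counting error only.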

Additional observations from a re-analysis of the deposited data

Results flagged for a closer look

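Among 54 groups of 5 libraries examined, 15 had a library far from the other 4 in CPM. Chance gives about 1 in 20 for normal and independent values. CPM are skewed and the groups share the same libraries, so the number is not read against that rate. All 15 were highest libraries, and septins accounted for 6 of these in 27 groups. SEPT10 stood apart in androgenetic replicate 6, at 291 CPM, and in ICSI replicate 5, at 103 CPM. The gap to the next library was 0.713 and 0.763 of the group's range, against a limit of 0.71, but 0.285 and 0.336 on the log2 scale, below that limit. SEPT7 was also apart in androgenetic replicate 6, at 557.6 CPM. SEPT4 was apart in androgenetic replicate 5 (4.04 CPM) and in ICSI replicate 5 (7.53 CPM), and SEPT12 in ICSI replicate 5 (5.15 CPM).

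ICSI replicate 5 and androgenetic replicate 6, the libraries with the fewest detected genes, accounted for 7 and 4 of the 15. Among other genes, ICSI replicate 5 was apart for CNTRL (23.8 CPM), MAD2L1 (3619 CPM), DUXA (634 CPM) and EVA1A (14.1 CPM). Androgenetic replicate 6 was apart for DUXA (6423 CPM) and SOWAHC (4.71 CPM). RHOB was apart in androgenetic replicate 5 (27.0 CPM). DPRX was apart in parthenogenetic replicate 5 (1.22 CPM) and ICSI replicate 3 (0.718 CPM).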

How the results depend on the processing

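SEPT10 kept its direction in all 3 comparisons under every alternative. It was picked for its differences in these same counts, so this describes the fits and is no independent support. The alternatives include the rows LOC101904087 and ENSBTAG00000022461 in its place, which hold nearly the same counts. The log2 fold change of SEPT10, leaving out 1 library at a time, ranged from 0.78 to 2.84 for androgenetic minus ICSI, from -5.85 to -3.63 for parthenogenetic minus ICSI and from 5.60 to 7.48 for androgenetic minus parthenogenetic morulae. Under the other alternatives it ranged from 0.38 to 1.98, -5.10 to -3.35 and 4.84 to 6.63. The number of other septins called, 0 in each comparison, was 3 for androgenetic minus ICSI in DESeq2, 1 in limma voom, 1 with library size only, and 2 without the 3 libraries with fewest genes, where 12.9%, 5.35%, 3.55% and 9.66% of all rows were called. For androgenetic minus parthenogenetic morulae it was 2, 1, 1 and 2 under the same settings, beside 11.4%, 4.29%, 2.25% and 11.1% of rows. Leaving out 1 library gave 0 to 2 in both, with 2 without androgenetic replicate 6 (4.35% and 2.19% of rows called), and the cause was not tested. Leaving out the 3 libraries was chosen after seeing the data. The median log2 fold change over all rows for androgenetic minus ICSI was -0.01, but 0.13 with DESeq2's size factors and -0.54 with library size only.

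Same-numbered libraries showed little shared deviation from their group means (12 pairs, r from -0.05 to 0.09, mean of the other pairs -0.003). A correlation over all rows cannot show whether such libraries shared a day or parent animals, and the labels do not say. With the replicate number as a block, 0 septins were called in each comparison, beside 0%, 0.0183% and 0.537% of all rows (androgenetic minus ICSI, parthenogenetic minus ICSI, androgenetic minus parthenogenetic), so the 0 says nothing about septins in particular. SEPT2 reversed to 0.24 for parthenogenetic minus ICSI.

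The other reversals were in comparisons where that septin passed no test in any fit. Without the 3 libraries, SEPT4 was 0.48 and SEPT11 0.017 for androgenetic minus ICSI, SEPT11 0.12 for androgenetic minus parthenogenetic, and SEPT11 -0.10 and SEPT12 0.24 for parthenogenetic minus ICSI. In that last comparison SEPT11 was -0.22 with library size only and -0.00438 with the filter at 50 counts, and SEPT2 was 0.17 with genes detected as a covariate. Leaving out 1 library, values ranged from -4.89 to 0.12 for SEPT4 and -0.49 to 0.030 for SEPT11 (androgenetic minus ICSI), from -0.49 to 0.017 for SEPT11 (androgenetic minus parthenogenetic), and for parthenogenetic minus ICSI from -0.42 to 0.16 for SEPT2, -0.053 to 1.86 for SEPT4, -0.048 to 0.35 for SEPT7, -0.13 to 0.29 for SEPT9, -0.070 to 0.13 for SEPT11 and -0.29 to 0.17 for SEPT12. SEPT4 was not tested under the 50-count filter. Depth limits SEPT4 and SEPT8 in androgenetic libraries and SEPT10 in parthenogenetic ones, where as few as 0, 0 and 3 counts were found.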
